A study of Mus musculus with 15 samples.

Results

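The genes described here are the 3 NR4A nuclear receptors (Nr4a1, Nr4a2 and Nr4a3), the EGR zinc finger factors Egr1, Egr2 and Egr3, and the basic helix-loop-helix repressor Bhlhe40. They were found by matching these symbols to the Ensembl identifiers of the deposited expression table, which gave 7 of its 51912 genes, and all 7 were among the 15692 genes abundant enough to test. The study, whose title concerns genome-wide screens and calcium signalling in IgE plasma cells, profiled wild-type mouse B cells grown in vitro and given no further treatment, in 5 groups of 3 biological replicates. All cells spent 6 days on 40LB cells, a feeder line that drives B cell growth, with 100 ng/ml of IL-4, and D6 is the whole unsorted culture at day 6. The other groups left the feeders for 2 more days in RPMI with no stimulus and were then sorted as plasma cells (IgE PC, IgG1 PC) or as the cells the labels call iGC (IgE iGC, IgG1 iGC). The sex and age of the mice and the sort gates are not given in the sources used here. Nor do they tell whether equal replicate numbers mean a shared animal or culture, so p-values measure the spread between these libraries.

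NR4A receptors are nuclear receptors that act without a known hormone ligand and bind DNA as monomers or dimers, in part with retinoid X receptors. Their genes and those of the EGR factors are immediate early genes, transcribed within minutes of antigen receptor engagement without new protein synthesis, through calcium and calcineurin-NFAT, through ERK acting on SRF and its ELK partners, and through CREB. In B cells Nr4a1 is widely used as a reporter of antigen receptor signalling, EGR factors drive and are held back by the co-repressors NAB1 and NAB2, and Bhlhe40 encodes a repressor that binds E-boxes and also acts in the circadian clock.

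The stretches before the start sites of 4 members are shown because CREB, SRF and EGR motifs there bear on how these genes are known to be switched on. They come from RefSeq on GRCm38.p6 and run 5′ to 3′ on the strand of the gene, with capitals on each CRE core (TGACG or its complement CGTCA), each EGR site (GCGNGGGCG on either strand) and each CArG box, the site of SRF. Nr4a1 is chr15:101266596-101266845 (plus strand), Nr4a2 is chr2:57124004-57124253 (minus strand), Nr4a3 is chr4:48045055-48045152 (plus strand, only the bases before its annotated exon) and Egr2 is chr10:67537619-67537868 (plus strand, 1 of several starts).
Nr4a1: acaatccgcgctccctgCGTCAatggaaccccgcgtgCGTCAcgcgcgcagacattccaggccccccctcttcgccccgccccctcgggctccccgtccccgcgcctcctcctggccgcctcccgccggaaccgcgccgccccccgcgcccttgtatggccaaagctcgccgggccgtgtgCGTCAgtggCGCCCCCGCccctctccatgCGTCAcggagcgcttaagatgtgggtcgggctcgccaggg
Nr4a2: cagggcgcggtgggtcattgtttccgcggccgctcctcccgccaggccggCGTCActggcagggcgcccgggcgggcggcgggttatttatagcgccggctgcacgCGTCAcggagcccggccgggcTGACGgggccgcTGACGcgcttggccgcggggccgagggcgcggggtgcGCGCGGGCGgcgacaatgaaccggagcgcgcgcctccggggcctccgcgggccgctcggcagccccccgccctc
Nr4a3: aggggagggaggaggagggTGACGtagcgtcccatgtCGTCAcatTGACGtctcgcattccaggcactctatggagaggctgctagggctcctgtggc
Egr2: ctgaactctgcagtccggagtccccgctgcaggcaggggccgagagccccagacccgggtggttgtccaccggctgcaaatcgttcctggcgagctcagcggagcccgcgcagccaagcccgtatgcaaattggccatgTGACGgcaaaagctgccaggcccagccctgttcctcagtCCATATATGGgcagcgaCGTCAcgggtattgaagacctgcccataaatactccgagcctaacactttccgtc
Within the 250 bases before the start, the 3 NR4A genes each held 4 CRE cores, 1 of those of Nr4a3 lying past the printed stretch, whereas 0.688% of 32851 RefSeq windows of that length held 3 or more. The Egr2 window printed held 2 CRE cores, where 3.9% of windows held 2 or more, and 1 CArG box, found at least once in 1.47% of windows. Of the 5 Egr2 windows in the table, the one starting at 67535249 held neither motif and the one at 67537316 held a CArG box but no CRE core, and the other 3 overlap. An EGR site stood in the windows of Nr4a1 and Nr4a2, against 4.7% of windows. The full CRE (TGACGTCA, in 1.55% of windows) and the NR4A monomer site NBRE (AAAGGTCA, in 1.34%) matched in none of the windows of these 4 genes. The other patterns searched on both strands were the E-box CACGTG, the AP-1 site TGANTCA, the NFAT core GGAAAA and TATAAA, which stood in 6.02%, 6.75%, 20.4% and 12.4% of windows. Among the windows of these genes, TATAAA matched once in Nr4a2, and the E-box and the NFAT core each matched once in an Egr2 window not printed. A match is a description of these letters and not evidence of binding, and TGACG overlaps the full CRE.

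Libraries held between 17740876 and 54067953 expected counts, with IgE iGC library 3 the smallest. The sorted groups carried the markers their names call for: the summed level of 7 plasma cell markers was 9369 to 19230 CPM (counts scaled to a common library size by TMM, which corrects for a few very abundant transcripts) in the PC libraries and 579.8 to 1018 CPM in the iGC libraries. The 7 B cell markers summed to 10040 to 10470 CPM in iGC and 4071 to 5737 CPM in PC. The 13 feeder markers, mostly collagens and other fibroblast genes, were highest in D6 (229.3 to 373.9 CPM) and had their lowest mean in IgE PC (22.4 to 37.2 CPM), a range that overlapped IgG1 iGC (30.3 to 61.6 CPM). D6 differs from every sorted group in day, feeder contact and sorting at once, and these cannot be told apart.

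Per length of transcript, Egr1 was the most abundant of the 7 genes in all 5 groups, with a mean of 64.6 TPM (transcript abundance scaled to library and transcript length) in D6, 71.7 TPM in IgE PC and 106.7 TPM in IgG1 PC. Bhlhe40 came close to it only in IgG1 iGC, at 71.6 TPM against 79.96 TPM. By group mean, Nr4a2 was the least abundant member in every group except IgE PC, where at 0.703 TPM it stood above Nr4a1 (0.220 TPM) and Nr4a3 (0.157 TPM). In D6 its libraries (0.43, 0.18 and 0.93 TPM) overlapped those of Nr4a3 (0.59, 0.59 and 0.53 TPM). The NR4A transcripts were therefore scarce throughout, and their counts were small: in IgE PC libraries Nr4a1 had 21, 22 and 11 counts and Nr4a3 had 11, 15 and 21.

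**Figure D1:**
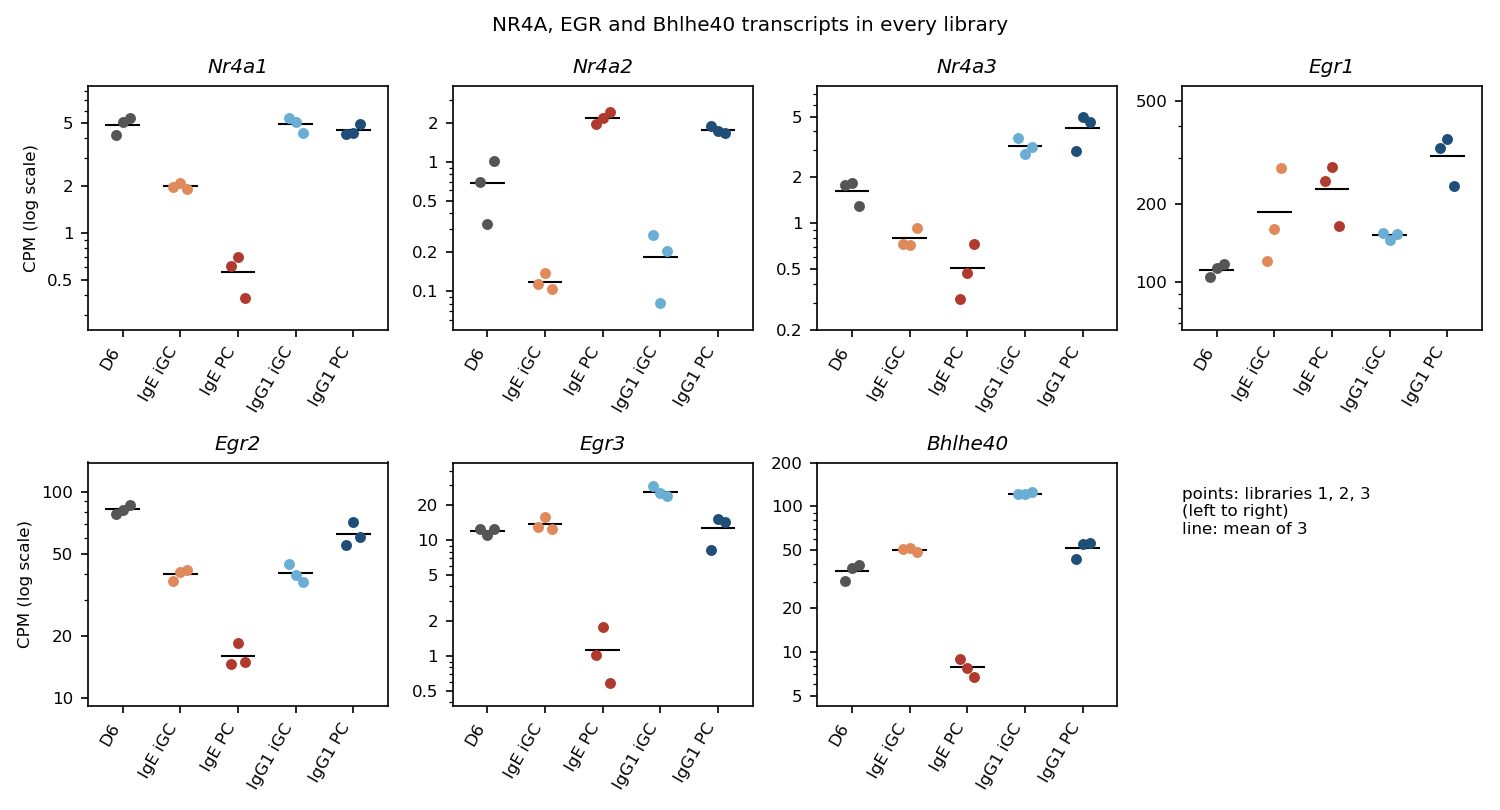
TMM-scaled CPM (log scale, own range in each panel) of the 7 genes in each of the 15 libraries; points are libraries and lines are means of 3. In IgE PC, Nr4a1, Egr2, Egr3 and Bhlhe40 lie below every other group, whereas Nr4a2 is high in both PC groups and Egr1 is not low in IgE PC.

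IgE plasma cells had much less Nr4a1, Nr4a3, Egr2, Egr3 and Bhlhe40 RNA than IgG1 plasma cells, while Nr4a2 and Egr1 were not called different. Among the 7 genes, 5 were lower and 0 higher in IgE PC by edgeR's quasi-likelihood test (Benjamini-Hochberg adjusted p under 0.05 over all 15692 genes). In this comparison 58.1% of all genes tested were called, 30.7% as lower and 27.4% as higher, so being called is common here, and the sizes say more than the calls. The median log2 difference of the 7 was -2.71, against -0.05 over all genes. Since these are bulk libraries, less RNA per cell and fewer expressing cells cannot be told apart.

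Nr4a1, the receptor known as NUR77, is on chromosome 15 (ENSMUSG00000023034; GRCm38 chr15:101254269-101274795). Its levels were 0.610, 0.695 and 0.384 CPM in the IgE PC libraries, and in those of IgG1 PC they were 4.27, 4.36 and 4.97 CPM. The 2 groups were far apart, 7.96-fold by the fit (log2 difference -2.99, SE 0.19; edgeR adjusted p = 6.3e-09). Nr4a3, known as NOR1 (chr4:48045153-48086447), had 0.319, 0.474 and 0.732 CPM in IgE PC, against 2.97, 4.96 and 4.62 CPM in IgG1 PC. It was lower by a similar factor, 8.35-fold (log2 difference -3.06, SE 0.28; edgeR adjusted p = 2.67e-07), and again no library of one group reached the other.

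Nr4a2, known as NURR1 (chr2:57106830-57124003, minus strand), behaved otherwise. It had 1.95, 2.18 and 2.41 CPM in IgE PC, against 1.89, 1.74 and 1.66 CPM in IgG1 PC. All 3 IgE PC libraries were above all 3 IgG1 PC libraries, yet the difference was 0.30 on the log2 scale (SE 0.31, 95% interval -0.39 to 1.0; edgeR adjusted p = 0.421). The interval leaves out a fall of the size seen for Nr4a1 and Nr4a3. Hence the 3 receptors did not share 1 pattern: in IgE PC, Nr4a2 was the most abundant of them, and in IgG1 PC it was the least abundant.

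Among the EGR factors, Egr3 (chr14:70077203-70082614) differed most. It had 1.02, 1.80 and 0.593 CPM in IgE PC, against 8.19, 15.4 and 14.5 CPM in IgG1 PC, an 11.2-fold difference (log2 -3.48, SE 0.29; edgeR adjusted p = 2.09e-07). The IgE PC libraries held only 35, 57 and 17 Egr3 counts, and leaving out 1 library gave log2 values from -3.96 to -3.18. Egr2 (chr10:67535475-67542188), which with Egr3 is known for restraining lymphocyte activation, had 14.6, 18.5 and 14.9 CPM in IgE PC, against 55.3, 71.4 and 60.4 CPM in IgG1 PC. Its difference was 3.91-fold (log2 -1.97, SE 0.11; edgeR adjusted p = 2.44e-09), with the groups clearly separate.

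Egr1, on chromosome 18, was the exception. It had 245.2, 277.5 and 164.3 CPM in IgE PC, against 329.8, 355.7 and 233.8 CPM in IgG1 PC, so that library 3 was the lowest in both groups and the groups overlapped. The log2 difference was -0.42 (SE 0.26, 95% interval -1.01 to 0.17; edgeR adjusted p = 0.19). With total-count scaling it passed the threshold (log2 -0.66, edgeR adjusted p = 0.0388), but that scaling lowered the median of all genes in this comparison from -0.05 to -0.30 and moved the calls from 4303 higher and 4816 lower to 2272 higher and 7265 lower. Relative to each median, the Egr1 difference was about as large under both.

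Bhlhe40 (chr6:108660629-108666925) had 8.997, 7.80 and 6.76 CPM in IgE PC, against 43.4, 54.8 and 56.3 CPM in IgG1 PC. Its difference was 6.54-fold (log2 -2.71, SE 0.12; edgeR adjusted p = 2.85e-10), with the smallest p of the 7 genes. An antisense gene overlapping it held only 8 counts over all libraries. Its paralog Bhlhe41 was also called lower in IgE PC, by a small amount (log2 -0.26, edgeR adjusted p = 0.0162), and Egr4, the remaining EGR gene, had a log2 difference of -1.33 that was not called (edgeR adjusted p = 0.0681).

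**Figure D2:**
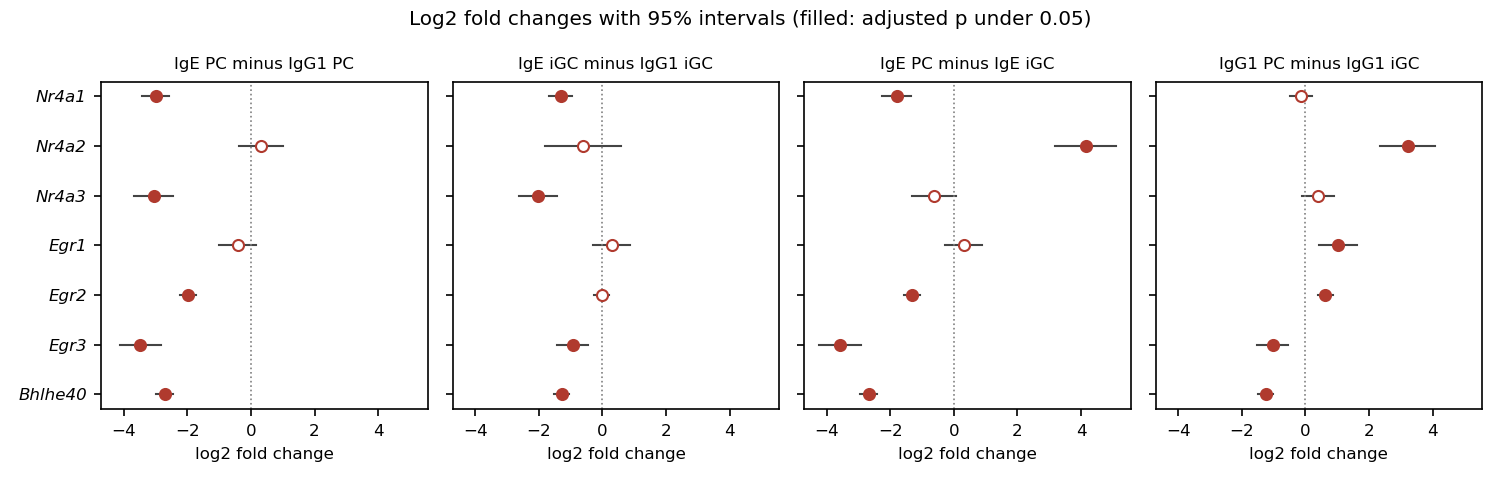
Fitted log2 differences of the 7 genes with 95% intervals from edgeR, between isotypes in plasma cells and in iGC cells (left panels) and from iGC to PC within each isotype (right panels); filled points passed the test. Between plasma cells the 5 called genes run from -3.48 (Egr3) to -1.97 (Egr2), and between iGC cells the 4 called genes run from -2.04 (Nr4a3) to -0.93 (Egr3).

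Other cell types in the sorted libraries also differed between the PC groups. Feeder markers summed to 196.5, 67.6 and 194.6 CPM in IgG1 PC libraries 1, 2 and 3, against at most 37.2 CPM in IgE PC. IgG1 PC library 2, with the least feeder RNA of its group, was the highest of the 3 libraries for 4 of the 7 genes and the lowest for none. Library 3, with feeder RNA close to that of library 1, was the highest for 2 and the lowest for 2. IgG1 PC library 1 was the lowest for 5 of the 7 and also had the most plasma cell marker RNA, 13660 CPM against 10160 CPM and 9369 CPM in libraries 2 and 3. Most of this sum was Jchain (9164, 6426 and 5928 CPM), and Prdm1 and Slamf7 were instead highest in library 2. Plasma cell markers summed to 16780 to 19230 CPM in IgE PC, above all IgG1 PC libraries. B cell markers summed to 4071 to 4316 CPM in IgE PC, against 5518 to 5737 CPM in IgG1 PC. The part that these differences in makeup have in the levels of the 7 genes was not tested. The 5 calls held with each library left out in turn. T cell markers summed to 60.03 to 69.2 CPM in IgE PC, against 17.5 to 22.7 CPM in IgG1 PC, nearly all of it Cd28, which plasma cells also express, and Cd3e was at 0 in all IgE PC libraries. Myeloid markers reached at most 8.92 CPM in any library.

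**Figure D3:**
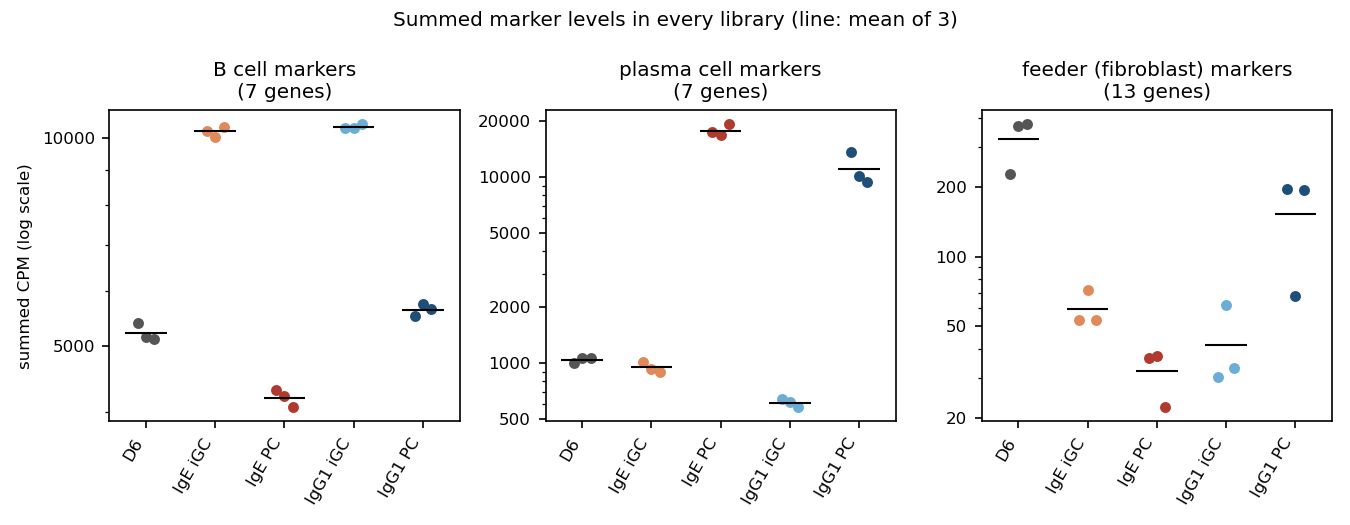
Summed TMM-scaled CPM (log scale) of B cell, plasma cell and feeder markers in each library, with 1 point a library. Lines are means of 3. Feeder RNA has its lowest mean in IgE PC (22.4 to 37.2 CPM) and spans 67.6 to 196.5 CPM within IgG1 PC.

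Between the iGC cells of the 2 isotypes, where few genes differed, 4 of the 7 were lower in IgE and 0 higher. Only 3.87% of all genes tested were called in this comparison, 1.88% as lower and 1.99% as higher. The 7 genes had a median log2 difference of -0.93, against 0.01 over all genes. Nr4a1 had 1.96, 2.08 and 1.91 CPM in IgE iGC and 5.395, 5.13 and 4.35 CPM in IgG1 iGC, a 2.49-fold difference (log2 -1.32, SE 0.16; edgeR adjusted p = 0.000235). Nr4a3 had 0.728, 0.722 and 0.930 CPM against 3.61, 2.85 and 3.16 CPM, or 4.11-fold (log2 -2.04, SE 0.27; edgeR adjusted p = 0.000356). Both receptors were thus lower in IgE cells of this stage as well, with no overlap between libraries.

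Bhlhe40 was tightly replicated in iGC cells, at 50.9, 51.7 and 48.9 CPM in IgE and 120.9, 121.6 and 125.2 CPM in IgG1 (log2 -1.28, SE 0.11; edgeR adjusted p = 8.12e-06). Egr3 had 12.9, 15.8 and 12.5 CPM in IgE iGC and 29.3, 25.4 and 24.1 CPM in IgG1 iGC (log2 -0.93, SE 0.22; edgeR adjusted p = 0.0285). The Egr3 call was lost with no filter on low counts (edgeR adjusted p = 0.144) and when any 1 of the 6 libraries was left out (log2 -1.05 to -0.85, edgeR adjusted p from 0.0563 to 0.128), although no library of one group reached the other.

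Egr2 did not separate the isotypes at this stage: it had 36.7, 40.6 and 41.8 CPM in IgE iGC and 44.8, 39.5 and 36.4 CPM in IgG1 iGC. Its log2 difference was -0.02 (95% interval -0.26 to 0.21; edgeR adjusted p = 0.968), an interval that leaves out differences anywhere near the one between plasma cells. Egr1 had 120.8, 160.5 and 276.4 CPM in IgE iGC, the widest spread of any group, and 155.3, 145.3 and 153.9 CPM in IgG1 iGC (log2 0.29, 95% interval -0.30 to 0.88; edgeR adjusted p = 0.712). Without IgE iGC library 3, the smallest library, the log2 value was -0.11. Nr4a2 was near its floor, with 5, 5 and 2 counts in the IgE iGC libraries and 11, 3 and 7 in IgG1 iGC, and a difference was not detectable at this depth (log2 -0.61, 95% interval -1.8 to 0.58; edgeR adjusted p = 0.693).

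From iGC to plasma cells of IgE type, Nr4a1, Egr2, Egr3 and Bhlhe40 fell and Nr4a2 rose, so that 5 of the 7 were called, 4 lower and 1 higher, where 64.1% of all genes were called, 33.6% lower and 30.5% higher. Egr3 fell by 3.58 on the log2 scale (SE 0.29; edgeR adjusted p = 5.87e-08) and Bhlhe40 fell by 2.68 (SE 0.12; edgeR adjusted p = 2.69e-11). Nr4a1 fell by 1.80 (SE 0.20; edgeR adjusted p = 9.81e-07) and Egr2 fell by 1.31 (SE 0.11; edgeR adjusted p = 5.07e-08). For none of these 4 genes did a PC library reach an iGC library, but how many of all genes separate in this way was not counted. Nr4a3, already low in IgE iGC, had a log2 difference of -0.63 that was not called (SE 0.31; edgeR adjusted p = 0.0911), but it was called without IgE PC library 3 (log2 -0.96, edgeR adjusted p = 0.0224) and with total-count scaling (log2 -1.10, edgeR adjusted p = 0.00674). Egr1 had a log2 difference of 0.31 (SE 0.26; edgeR adjusted p = 0.332), which became a call of 0.70 without IgE iGC library 3 (edgeR adjusted p = 0.0102) and turned to -0.16 with total-count scaling.

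From iGC to plasma cells of IgG1 type, fewer of these genes went down. Of the 7, 3 rose (Nr4a2, Egr1 and Egr2) and 2 fell (Egr3 and Bhlhe40), where 59.1% of all genes were called, 30.1% higher and 29% lower. Egr1 rose by 1.02 on the log2 scale (SE 0.27; edgeR adjusted p = 0.00532), with every IgG1 PC library above every IgG1 iGC library, and Egr2 rose by 0.63 (SE 0.10; edgeR adjusted p = 0.00011). Feeder markers moved with this step, from 30.3 to 61.6 CPM summed in IgG1 iGC to 67.6 to 196.5 CPM in IgG1 PC, with 7 of the 10 tested called higher and 0 lower by edgeR, against 0 higher and 2 lower in the IgE step, and their part was not tested. Bhlhe40 fell by 1.25 (SE 0.11; edgeR adjusted p = 1.07e-07) and Egr3 fell by 1.03 (SE 0.22; edgeR adjusted p = 0.00103). Nr4a1 was not called, with a log2 difference of -0.13 (95% interval -0.47 to 0.21; edgeR adjusted p = 0.495). Nr4a3 was not called either, at 0.39 (95% interval -0.12 to 0.91; edgeR adjusted p = 0.158), except without IgG1 PC library 1 (log2 0.58, edgeR adjusted p = 0.0374).

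Nr4a2 rose in plasma cells of both isotypes. Its summed count was 205 in IgE PC against 12 in IgE iGC, a depth-scaled ratio of 17.9 (95% interval 10.03 to 35.2, exact and for counting error only), and 221 in IgG1 PC against 21 in IgG1 iGC, a ratio of 9.35 (5.97 to 15.4). The fitted log2 changes were 4.14 (SE 0.43; edgeR adjusted p = 4.33e-07) and 3.22 (SE 0.39; edgeR adjusted p = 4.87e-06). All PC libraries of either isotype, at 1.66 to 2.41 CPM, lay above all iGC libraries, at 0.0805 to 0.270 CPM.

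Whether the step from iGC to plasma cell differed between the isotypes was tested as an interaction, the IgE change minus the IgG1 change. It was negative and called for 5 of the 7 genes and positive and called for 0, where 42.9% of all genes were called, 23.1% as negative and 19.8% as positive. Egr3 had the largest value, -2.55 (SE 0.37; edgeR adjusted p = 9.95e-05), followed by Egr2 at -1.94 (SE 0.15; edgeR adjusted p = 2.93e-07), Nr4a1 at -1.68 (SE 0.25; edgeR adjusted p = 0.000103) and Bhlhe40 at -1.43 (SE 0.16; edgeR adjusted p = 6.09e-06). Egr2 went down in IgE and up in IgG1, while Egr3 and Bhlhe40 went down in both and further in IgE. Nr4a3, at -1.03 (SE 0.39; edgeR adjusted p = 0.0453), was a marginal call that 10 of the 12 fits with 1 library left out lost (edgeR adjusted p from 0.0503 to 0.137). The interaction was not called for Nr4a2 (0.92, 95% interval -0.47 to 2.3; edgeR adjusted p = 0.256) or Egr1 (-0.71, 95% interval -1.54 to 0.12; edgeR adjusted p = 0.147). For Egr1 it passed the threshold without IgE iGC library 1 (-0.94, edgeR adjusted p = 0.0344) and with total-count scaling (-0.94, edgeR adjusted p = 0.0492).

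**Figure D4:**
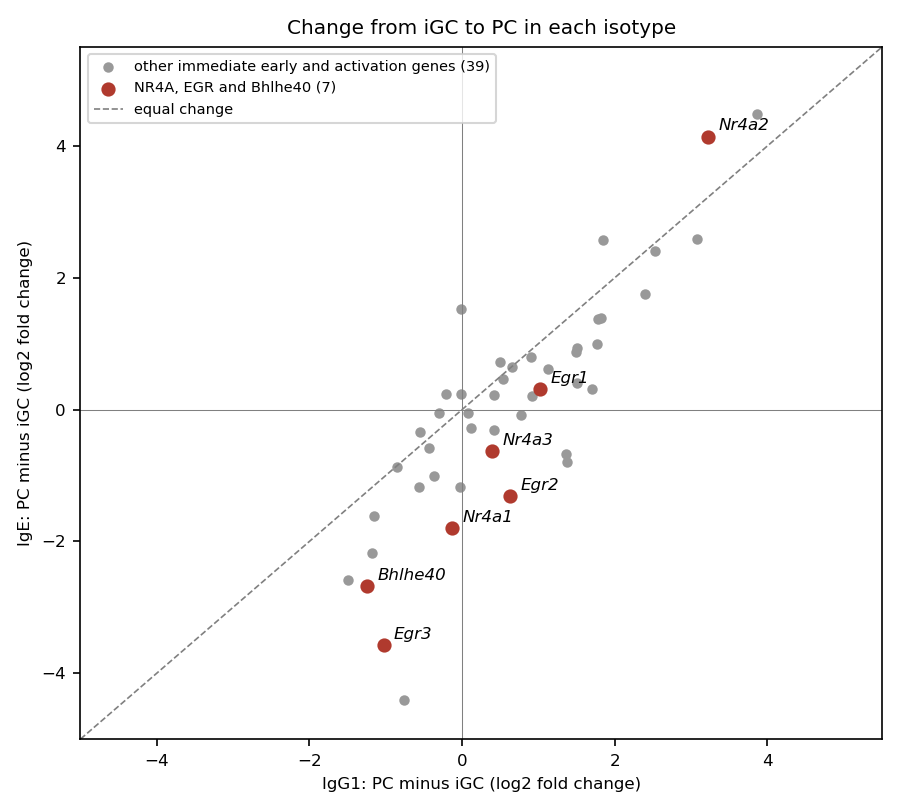
Fitted log2 change from iGC to PC in IgG1 cells (horizontal axis) against IgE cells (vertical axis) for the 7 genes (red, named) and 39 other immediate early and activation genes (grey), with a dashed line of equal change. Nr4a2 lies at 3.22 and 4.14, and Egr2, at 0.63 and -1.31, is the member with called changes in opposite directions.

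Against the unsorted day 6 culture, which the 4 sorted groups share as their control, each group had its own profile. In IgE PC 5 genes were lower and 2 higher, where 76.4% of all genes were called, 39.5% lower and 36.9% higher. In IgE iGC 4 were lower and 2 higher, against 69.1% of all genes called, 36.3% lower and 32.8% higher. In IgG1 iGC 2 were lower and 3 higher, with 68.4% of all genes called, 36% lower and 32.4% higher. In IgG1 PC 1 was lower and 4 higher, with 71.9% of all genes called, 36% lower and 35.9% higher. With total-count scaling 2 were lower and 3 higher, where 7370 of all genes were lower and 3964 higher. D6 libraries had 4.20, 5.09 and 5.41 CPM of Nr4a1, and neither IgG1 group was called different from them (log2 0.02 in iGC and -0.11 in PC), except IgG1 PC with total-count scaling (-0.39, edgeR adjusted p = 0.045). In IgE iGC Nr4a1 was below D6 by a log2 difference of -1.30, and in IgE PC by -3.10.

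Egr2 was the member with its highest level in D6, at 77.9, 81.7 and 86.7 CPM, and it was lower in all 4 sorted groups, with log2 differences of -1.05 in IgE iGC, -2.36 in IgE PC, -1.03 in IgG1 iGC and -0.39 in IgG1 PC. Bhlhe40, at 30.6, 37.8 and 39.3 CPM in D6, was above that in 3 groups, by 0.50 in IgE iGC, 1.77 in IgG1 iGC and 0.52 in IgG1 PC on the log2 scale (0.25 in IgG1 PC with total-count scaling, not called, edgeR adjusted p = 0.0943), and below it by a log2 difference of -2.19 in IgE PC. Egr3 had 12.6, 11.2 and 12.6 CPM in D6. It was higher in IgG1 iGC (log2 1.11) and lower in IgE PC (log2 -3.40), and was not called in IgE iGC (0.18) or IgG1 PC (0.08).

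Nr4a3 had 1.77, 1.83 and 1.29 CPM in D6 and moved apart by isotype: it was lower in IgE iGC (log2 -1.07) and IgE PC (-1.70) and higher in IgG1 iGC (0.97) and IgG1 PC (1.37). Nr4a2 moved apart by stage, from 0.703, 0.332 and 1.02 CPM in D6 down in the iGC cells (log2 -2.47 in IgE, -1.86 in IgG1) and up in the plasma cells (1.67 in IgE, 1.36 in IgG1). Egr1 had 105.1, 113.6 and 117.1 CPM in D6, below the mean of every sorted group. It was called higher in IgE PC (log2 1.03), IgG1 PC (1.45) and IgE iGC (0.73, edgeR adjusted p = 0.0269), but without IgE iGC library 3 the last was 0.34 (edgeR adjusted p = 0.16). That call was also lost with no filter (0.0715), with only the groups compared (0.11) and without any 1 D6 library (edgeR adjusted p from 0.0502 to 0.0693), at log2 values of 0.69 to 0.77. With total-count scaling the IgE PC value was 0.50 (edgeR adjusted p = 0.0872).

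The order of the 5 groups therefore differed by gene. IgE iGC and IgG1 PC, neighbours for 3 genes, differed in 56% of all genes. For Nr4a1 it ran from IgE PC through IgE iGC (both called different from their next neighbour) to IgG1 PC, D6 and IgG1 iGC, and the steps among these last 3 were not called. For Bhlhe40 it ran from IgE PC through D6, IgE iGC and IgG1 PC to IgG1 iGC, and only IgE iGC and IgG1 PC could not be told from each other. For Egr3, IgE PC stood at the bottom and IgG1 iGC at the top, both called against the next group, and the steps among D6, IgG1 PC and IgE iGC between them were not called. For Egr2, IgE PC was followed by the 2 iGC groups, level with each other, then IgG1 PC and D6, each called above the group before it. For Nr4a2 the 2 iGC groups were lowest and the 2 PC groups highest with D6 between them, and for Nr4a3 the 2 IgE groups were lowest and the 2 IgG1 groups highest, again around D6. No neighbours in the order of Egr1 were called different.

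Partners of these proteins showed a mixed picture between the PC groups: of 12 genes for NAB co-repressors, retinoid X receptors, SRF and its cofactors and the remaining paralogs, 2 were higher in IgE PC and 7 lower, with a median log2 difference of -0.31, where 58.1% of all genes were called and 30.7% were lower. With total-count scaling 1 was higher and 8 lower (median -0.57) and Rxrb changed sign. Over all genes that scaling called 2272 higher and 7265 lower (median -0.30). Nab2, a co-repressor of EGR proteins and itself a known EGR target, had 4.13 ± 0.299 CPM (SD, n = 3) in IgE PC, against 21.1 ± 2.25 CPM in IgG1 PC (log2 -2.35; edgeR adjusted p = 7.49e-10). It fell by 1.97 on the log2 scale from IgE iGC to IgE PC, whereas its step in IgG1 was -0.06 and not called (edgeR adjusted p = 0.671), and the interaction was -1.91 (edgeR adjusted p = 4.55e-07). Rxra, a dimer partner of NR4A receptors, was also lower in IgE PC (log2 -1.75) and in IgE iGC (log2 -0.92), and Elk3, an ETS partner of SRF, was lower in IgE PC (log2 -1.11). Elk4, another such partner, was higher in IgE PC (log2 0.49). Nab1 was not called between the PC groups (log2 0.13; edgeR adjusted p = 0.114).

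Of 39 other immediate early and activation genes, 6 were higher and 17 lower in IgE PC than in IgG1 PC, with a median log2 difference of -0.28, again where 30.7% of all genes were lower. Rgs2, a regulator of G protein signalling, was lower (log2 -3.01), as were the AP-1 subunit gene Fosl2 (-2.14), the surface protein gene Cd83 (-1.28) and the transcription factor gene Klf2 (-1.15). In the opposite direction Cd69, an early activation antigen, was higher in IgE PC (log2 1.56; 107.0 ± 20.0 against 36.2 ± 6.11 CPM), and so was the plasma cell factor gene Irf4 (log2 0.74). Of these 39 genes, 17 rose and 12 fell from IgE iGC to IgE PC (64.1% of all genes called, 30.5% higher and 33.6% lower). With total-count scaling 9 were higher and 17 lower. That scaling shifted all genes in this step, with 2651 of 15692 called higher and 8743 lower (median log2 -0.55). From IgG1 iGC to IgG1 PC 23 rose and 10 fell (59.1% of all genes called). Irf4 rose in both (log2 4.49 and 3.86), as did Dusp5, which encodes an ERK phosphatase (2.41 and 2.53). Between the iGC groups 2 were higher and 3 lower in IgE, where 3.87% of all genes were called, 1.99% higher and 1.88% lower. Rgs2, at 0.63, was there higher in IgE. With total-count scaling the counts between the PC groups became 3 higher and 27 lower, where 2272 of all genes were higher and 7265 lower. In the IgE step, Btg2, Dusp4, Ier2 and Ier5 then changed sign.

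Calcineurin and NFAT genes, which carry the calcium signal to these promoters, were counted next, and their part in the levels of the 7 genes was not tested. Of 9 tested, 5 were higher in IgE PC and 1 lower than in IgG1 PC (median log2 0.47), where 58.1% of all genes were called. The higher ones included the catalytic subunits Ppp3ca (0.47), Ppp3cb (0.62) and Ppp3cc (0.48) and the regulatory subunit Ppp3r1 (0.85), and Nfatc1 was lower (-0.41). With total-count scaling the counts were 4 higher and 3 lower, where 2272 of all genes were higher and 7265 lower. From IgE iGC to IgE PC, 3 rose and 3 fell, where 64.1% of all genes were called. With total-count scaling 1 was higher and 8 lower in this step, and Cabin1 and Ppp3ca changed sign. Over all genes that scaling called 2651 higher and 8743 lower there. From IgG1 iGC to IgG1 PC, 2 rose and 6 fell, where 59.1% of all genes were called. With total-count scaling 1 was higher and 7 lower, where 3226 of all genes were higher and 6840 lower. In the ERK module, 7 of 16 genes were higher in IgE PC and 4 lower (median log2 0.10). With total-count scaling 3 were higher and 6 lower, again where 2272 of all genes were higher and 7265 lower. The RAS activator gene Sos1 was higher (log2 1.26) and Rasgrp1, a RAS activator driven by diacylglycerol, was lower (-1.81). In iGC cells, Spred2 (0.83) and Spry2 (0.78), which encode inhibitors of the pathway, were higher in IgE, and 0 of the 16 were lower.

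Of 17 genes reported as NR4A or EGR targets in lymphocytes, 13 were abundant enough to test. Of these, 2 were higher and 7 lower in IgE PC than in IgG1 PC (median log2 -1.46). Over all genes 58.1% were called, 30.7% lower and 27.4% higher. Ccl3 and Ccl4, both lower, are also among the 39 immediate early and activation genes. The link of the target genes to the levels of the 7 genes was not tested. Ctla4, an inhibitory receptor gene, had 1.51 CPM in IgE PC against 9.29 CPM in IgG1 PC (log2 -2.63), yet it rose from iGC to PC in both isotypes (3.17 and 5.61). Batf was lower (-0.70), and the ubiquitin ligase gene Cblb, at 7.24 against 4.88 CPM, was higher (0.56). The clock genes, on which Bhlhe40 is known to act as a repressor through E-boxes, included 8 of 11 higher and 2 lower in IgE PC (median log2 0.53), with Cry1 (0.71), Per1 (0.54), Nr1d2 (1.09) and Cry2 (0.62) higher and Nr1d1 (-1.73) and Per2 (-0.37) lower. With total-count scaling the clock genes gave 6 higher and 2 lower, and Tef changed sign. Over all genes that scaling called 2272 higher and 7265 lower. Of all genes, 58.1% were called between the PC groups, 27.4% higher and 30.7% lower in IgE PC. Between the iGC groups, 0 of the 11 clock genes were called, where 3.87% of all genes were, a share at which 0 calls among 11 genes is unremarkable. The part of Bhlhe40 in the levels of the clock genes was not tested.

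Over the 15 libraries, the 7 genes formed no single pattern. As a description across libraries that share groups, the log2 CPM of Egr3 and Bhlhe40 had a Pearson r of 0.96 (Spearman 0.91), whereas Nr4a2 had an r of -0.67 with Bhlhe40 and -0.65 with Egr3, and Egr1 had -0.20 with Bhlhe40. Among 8881 genes compared, those most like each member were Thop1 for Nr4a1 (r 0.964), Sec61g for Nr4a2 (0.974), Mgst2 for Nr4a3 (0.873), Ier2 for Egr1 (0.895), Mybl2 for Egr2 (0.983), Ffar2 for Egr3 (0.992) and Gbp2 for Bhlhe40 (0.984). Ffar2, a receptor gene for short-chain fatty acids, had group means of 0.372 CPM in IgE PC, 5.91 CPM in IgG1 PC and 11.8 CPM in IgG1 iGC, in the order of Egr3. Sec61g, a subunit gene of the channel that takes proteins into the endoplasmic reticulum, had 10.8 CPM in IgE PC, 10.9 CPM in IgG1 PC, 1.51 CPM in IgE iGC and 1.49 CPM in IgG1 iGC, close to the flat PC levels of Nr4a2. Ier2, itself an immediate early gene, had 79.5 CPM in IgE PC, against 84.4 CPM in IgG1 PC, and was not called between them (log2 -0.08; edgeR adjusted p = 0.395), as Egr1 was not.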

How the data were processed

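PolyA RNA was sequenced as 76 bp single-end strand-specific reads, per the labels' protocols. Per the submitters' processing notes, cutadapt 1.9.1, STAR 2.5.2a, RSEM 1.3.0 and DESeq2 1.12.3 were used with GRCm38; the annotation is not given in the sources used here. The authors deposited RSEM expected counts and TPM per gene. The TPM values as deposited were used only to compare genes with each other. Expected counts were rounded to whole numbers, and the counts of the 7 genes were whole in every library. No row lacked a gene identifier. With edgeR 4.0.16 in R 4.3.3, genes were filtered (at least 10 counts in enough libraries, 15 in all), scaled by TMM and fitted in 1 quasi-likelihood model over all 15 libraries, with 1 mean per group and 10 residual degrees of freedom. Contrasts were tested with the quasi-likelihood F test and Benjamini-Hochberg adjustment over 15692 genes, and called at an adjusted p under 0.05. A log2 SE is the log2 difference over the square root of F. The procedure was tested on simulated data in which few genes changed, evenly up and down, so the choice of scaling was not put to the test.

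The members and gene lists were chosen with earlier results of these data known. Named genes were the 7 members, up to 4 called genes of each list and direction with the smallest p, and for likeness the 3 genes with the highest r per member among those with a mean of at least 10 CPM in a group. Some list genes are not reported here by name. Groups came from the sample titles. Alternatives were DESeq2 size factors, total-count scaling, no filter, the DESeq2 1.42.0 Wald test, a replicate block, only the groups compared, and each library left out. Motifs were searched in RefSeq windows, of which 4 of the 7 members had 1 or more.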

Additional observations from a re-analysis of the deposited data

Results flagged for a closer look

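For 5 of the 7 genes the change from iGC to plasma cell differed between the isotypes by the interaction test in edgeR, the IgE change minus the IgG1 change on the log2 scale. The values were -1.68 for Nr4a1, -1.03 for Nr4a3, -1.94 for Egr2, -2.55 for Egr3 and -1.43 for Bhlhe40. Each is negative, and 42.9% of all genes tested had an interaction that was called. Egr2 is the gene among them whose called changes went in opposite directions, down in IgE and up in IgG1. Feeder markers summed to 67.6 to 196.5 CPM in IgG1 PC and 22.4 to 37.2 CPM in IgE PC, and their part in these differences was not tested.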

How the results depend on the processing

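Of 965 values of the 7 genes under the alternatives, 902 kept their direction and their side of the threshold. The 5 calls between plasma cells kept theirs under every alternative run. The number of genes called between IgE iGC and IgG1 iGC, 607, was 937 with the DESeq2 Wald test, 1503 with only those groups fitted and 323 to 403 with 1 library left out; the cause was not tested. Values that changed sign were all uncalled. With total-count scaling these were Egr1 from IgE iGC to IgE PC (-0.16), Egr3 in IgG1 PC against D6 (-0.19), Bhlhe40 in IgG1 PC against IgE iGC (-0.18) and Nr4a1 in IgG1 iGC against D6 (-0.03, and -0.00063 with DESeq2 size factors). With 1 library left out the sign depended on the library for Egr1 (-0.11 to 0.52) and Egr2 (-0.09 to 0.06, at 0.03 without IgE iGC library 1) between iGC groups, Egr3 in IgG1 PC against D6 (-0.06 to 0.31, with -0.01 in another fit) and against IgE iGC (-0.28 to 0.12, with 0.01 in another), Bhlhe40 in IgG1 PC against IgE iGC (-0.04 to 0.13) and Nr4a1 in IgG1 iGC against D6 (-0.08 to 0.11, with -0.04 in another).

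The Nr4a3 interaction lost its call with DESeq2 size factors (edgeR adjusted p = 0.0534), with no filter (0.053) and with a replicate block (-1.02, edgeR adjusted p = 0.0596). Same-numbered libraries did not deviate together (30 pairs, mean correlation -0.0145, from -0.195 to 0.0908), so the block was not used for the main values, and whether equal numbers share an animal or culture is not settled by this; the block kept 75 of 77 member values, the other being Egr1 in IgG1 PC against IgE iGC (0.73, edgeR adjusted p = 0.0526). Fitting only the 2 iGC groups gave no value for Nr4a2, which fell under the filter. Low counts limit Nr4a1, Nr4a2 and Nr4a3, and also Egr3 in IgE PC (35, 57 and 17 counts).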

Other observations

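Fos, named here after its values were seen, encodes the AP-1 subunit that is induced with the EGR genes. It rose from iGC to plasma cells in both isotypes, by 2.59 in IgE and 3.07 in IgG1 on the log2 scale, and had 142.1 ± 36.95 CPM (SD, n = 3) in IgE PC, against 143.8 ± 54.2 CPM in IgG1 PC and 2.81 ± 0.781 CPM in D6. Like Egr1 and Ier2, it was not called between the plasma cell groups (log2 -0.01).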
